A study of Mus musculus with 24 samples.

Results

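The data described here are the response of Ythdf2 cKO myeloid cells to irradiation, measured in Input RNA, that is in messenger RNA sequenced without immunoprecipitation. The members are all genes that reached 10 counts or more in at least 3 of the 6 Input libraries of this genotype (3 Ctrl and 3 IR), and 15065 of the 54446 counted gene identifiers met this rule, 12476 of them protein coding. The rule used the level of a gene and not its change, although 66 genes reached 10 counts in every Ctrl library and in no IR library, and 40 did so the other way round, so that a difference was built into these genes, of which 46 and 31 were called. The series holds 24 libraries, of which 12 are Inputs and 12 were enriched with an antibody against N6-methyladenosine (m6A). All cells were CD11b+ myeloid cells, labelled as coming from MC38 tumours, a colon carcinoma line that grows in C57BL/6J mice. Every mouse carried floxed Ythdf2 alleles (Ythdf2 fl/fl), and the mice labelled Ythdf2 cKO also carried Cre at the Lyz2 locus (Lyz Cre+), which is expressed in macrophages, monocytes and neutrophils, whereas those labelled WT had no Cre. IR tumours received a single local dose of 20 Gy and cells were collected 3 days later, and Ctrl tumours were not irradiated. Per the study's methods the mice were of both sexes and 8 to 10 weeks old, and cells of 5 mice were pooled for each replicate, a statement made for Ythdf2 f/f mice. The methods call these replicates technical, so that the p-values below measure only the spread between libraries.

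Ionizing radiation breaks DNA, and cells answer through the checkpoint kinases and the transcription factor p53, which arrests the cell cycle, starts repair or triggers apoptosis. In tumours it also changes the myeloid compartment, since dying cells attract monocytes and neutrophils through chemokines, and dendritic cells take up antigen and mature. YTHDF2 is a cytoplasmic reader of m6A that recruits the CCR4-NOT deadenylase and so shortens the life of methylated transcripts.

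Depth and labels were examined first. The Inputs held 71.3M, 83.7M and 75.3M gene counts in cKO Ctrl and 71.7M, 70.2M and 65.2M in cKO IR. Levels are given as CPM, the count of a gene per 1M counts of the library after scaling. The sorted cells carried the defining myeloid genes, with Itgam, which encodes CD11b, at 392, 392 and 404 CPM in Ctrl and at 338, 339 and 327 CPM in IR, and Ptprc, which encodes CD45, at a mean of 730 and 577 CPM. Of 13 T cell markers 11 stood under 1 CPM in Ctrl, and the keratin and claudin genes of the epithelial or tumour list were at or near 0, with the list summing to between 5.98 and 6.4 CPM in Ctrl and between 5.68 and 5.98 CPM in IR. The targeted gene went against its label. Ythdf2 (ENSMUSG00000040025.17, chromosome 4, positions 132184912 to 132212303, minus strand) stood at 174, 185 and 175 CPM in Ctrl and at 229, 218 and 216 CPM in IR, which was above the 97.1 CPM of WT Ctrl, and it rose by 0.31 on the log2 scale with irradiation (SE 0.04, edgeR adjusted p 3.4e-07). Counts were summed over the gene, so they do not show whether the floxed exons were read. Lyz2, which carries the Cre insertion, was low in all 6 libraries, at 304, 296 and 299 CPM in Ctrl and 411, 399 and 409 CPM in IR, against a mean of 20643 CPM in WT Ctrl. The libraries are therefore named by their labels, and any direction drawn between genotypes rests on those labels.

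Irradiation changed the Input RNA of the libraries labelled cKO broadly but mostly by small steps. Of the 15065 genes, 3940 (26.2%) were lower and 3413 (22.7%) higher in IR than in Ctrl, together 48.8% (edgeR quasi-likelihood F test, Benjamini-Hochberg adjusted p under 0.05), and the libraries of both groups did not overlap for 58.5% of genes. The median size of a called change was 0.35 on the log2 scale. Only 314 genes were lower and 234 higher by at least 2-fold, and 61 and 19 by at least 4-fold. The first principal component held 79.2% of the variance among the 6 libraries and separated IR from Ctrl. With this many calls, a list is described below by its counts beside these shares, and the median change of all genes tested was 0.00. Because the change followed transcript length, the fit was repeated with each library's smooth trend on exon length, alone or with GC content, as an offset, alternatives chosen after seeing the data, and a gene's value from them is given where the offset ended or turned its call.

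**Figure D1:**
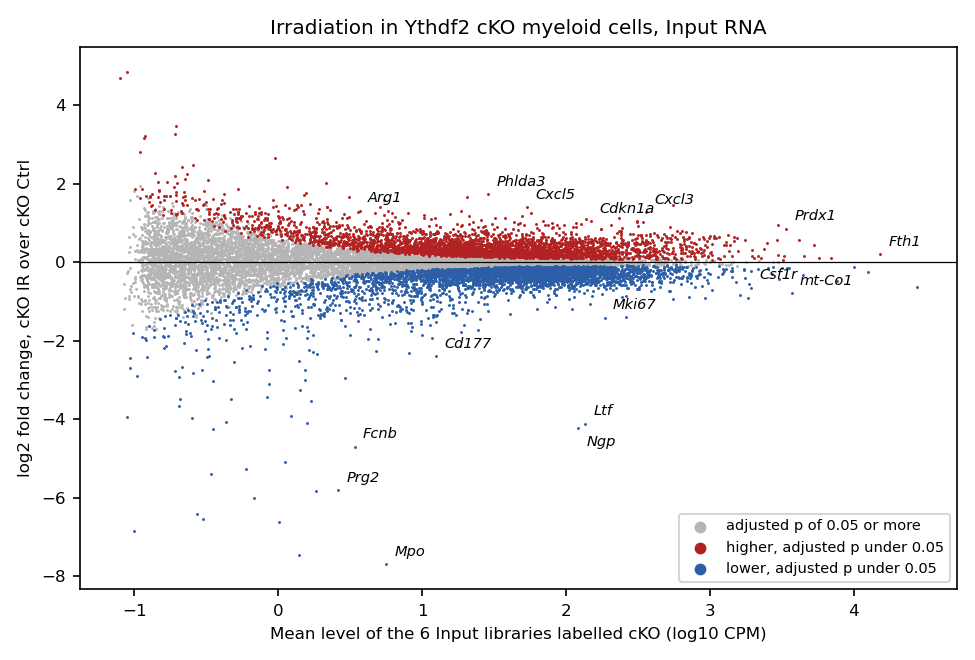
Each point is 1 of the 15065 genes, with its mean level over the 6 Input libraries labelled cKO on the x axis (log10 CPM) and its log2 fold change between IR and Ctrl on the y axis. Red points were called higher and blue points lower at an adjusted p under 0.05, and grey points were not called. The falls of granule genes such as Mpo, Prg2, Ngp and Ltf reach far below the rest, whereas rises of well expressed genes such as Phlda3 and Cxcl5 stay under 2 on the log2 scale.

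Targets of p53 rose together. Of 28 listed genes, all of them tested, 24 were higher and 1 lower after irradiation, against 22.7% and 26.2% of all genes, and the median change was 0.55. Cdkn1a (ENSMUSG00000023067.14, chromosome 17, positions 29090976 to 29100727, plus strand), the inhibitor of cyclin-dependent kinases that carries the p53 arrest, stood at 95.3, 97.8 and 99 CPM in Ctrl and at 203, 200 and 203 CPM in IR. All 3 IR libraries lay at about the same level and far above Ctrl, a rise of 1.05 (SE 0.03, edgeR adjusted p 6.2e-15). Phlda3, an inhibitor of AKT signalling, had the largest rise among called protein-coding genes that reached 5 CPM in a group without overlap, going from 14.5, 12.3 and 13.2 to 44.2, 43.7 and 44.6 CPM (1.73, SE 0.08, adjusted p 2.5e-12). Ccng1, which encodes cyclin G1, rose by 1.06 to a mean of 420 CPM, and Mdm2, the ubiquitin ligase that removes p53, rose by 0.62.

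Members of the list with a role in cell death were among the rises, namely the BH3-only genes Bbc3 (0.71) and Pmaip1 (0.47), the pore former Bax (0.58) and the death receptors Fas (0.57) and Tnfrsf10b (0.88). Eda2r, a receptor of the TNF family, and Ddit4l, an inhibitor of mTORC1, showed the largest rises of the list, at 1.76 and 1.66, from low means of 0.709 and 1.49 CPM. Trp53inp1 (0.96) and Sesn2 (0.39), which act in autophagy and in the stress response, and Gdf15, a secreted stress cytokine (0.48), also rose. The single fall was that of Ckap2, a spindle protein, by 1.02, and Btg2 (−0.11, adjusted p 0.077) and Pidd1 were among the 3 members not called. In the libraries labelled WT the list had a median of 0.54 and 25 members higher. The difference between genotypes was called for 7 of the 28, 4 rising more and 3 less in cKO (interaction term of the same fit, adjusted p under 0.05, as for 32.5% of all genes). Those of Fas (0.35), Bax (0.39) and Zmat3 (−0.36) were not called with the length trend taken out (0.16, 0.13 and −0.12).

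Genes of cell death and survival went both ways, more often up. Of 23, 12 were higher (52.2%) and 7 lower (30.4%), against 22.7% and 26.2% of all genes (median 0.19). The survival genes Bcl2a1d and Bcl2a1b, near-identical copies whose reads may be divided uncertainly, rose by 0.95 and 0.91, Birc2, an inhibitor of apoptosis, by 0.53, and the inflammatory caspase Casp4 by 0.50. Ripk3, the kinase of necroptosis, fell by 0.55, Tnfrsf1a, the TNF receptor, by 0.39, and the BH3-only gene Bcl2l11 by 0.34. The rises of Casp4, Bcl2a1d and Bcl2a1b were larger than in WT, with interaction terms of 0.62, 0.55 and 0.70 (adjusted p at most 5.0e-06), that of Bcl2a1d not called with length and GC content taken out (0.16, adjusted p 0.067).

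**Figure D2:**
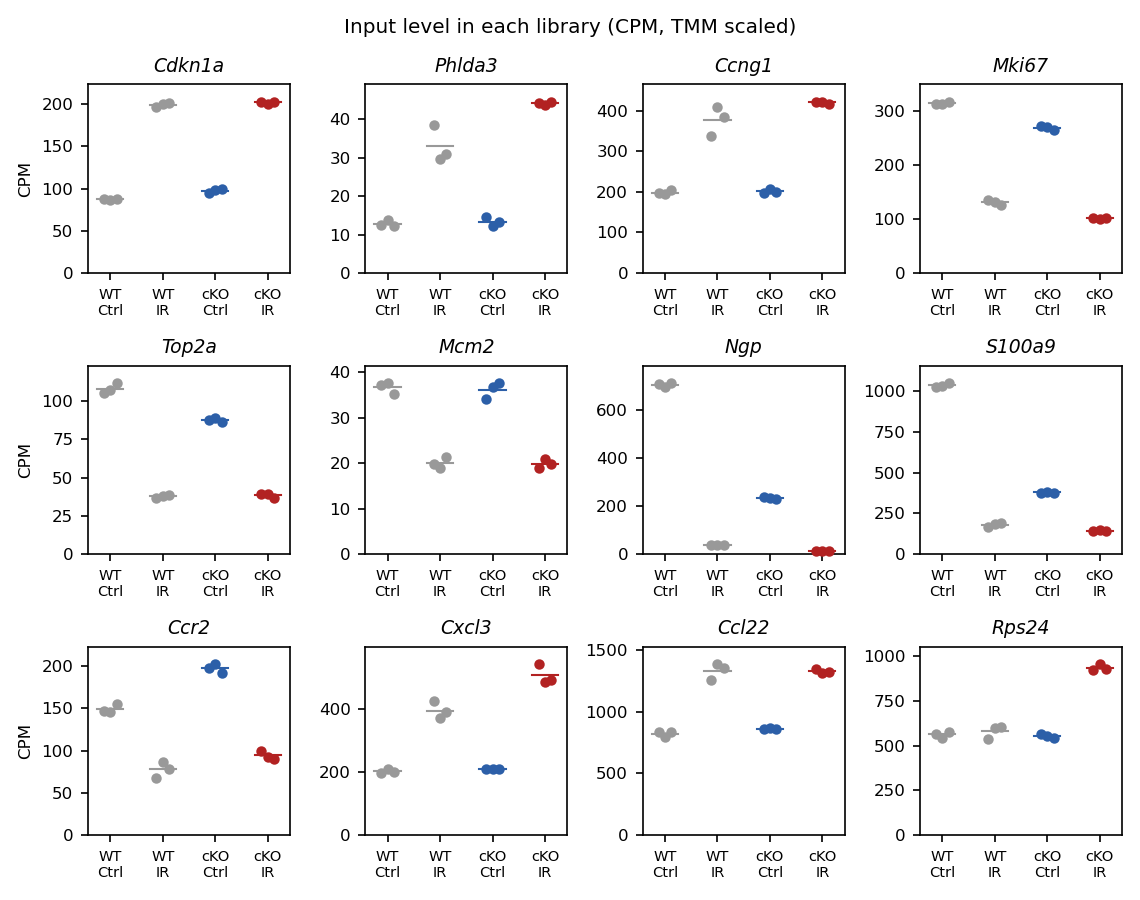
Each panel shows the Input level of a gene (CPM, TMM scaled, axis from 0) in the 3 libraries of each of the 4 groups, with a line at the group mean, grey for WT, blue for cKO Ctrl and red for cKO IR. The p53 targets Cdkn1a, Phlda3 and Ccng1 are higher and Mki67, Top2a, Mcm2, Ngp, S100a9 and Ccr2 lower in IR than in Ctrl in both genotypes, whereas Rps24 is raised in cKO IR and not in WT IR.

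Genes of cell division fell. Of 40 mitosis genes 39 were lower and none higher, with a median of −1.11 and a range from −1.78 to −0.21. Mki67 (ENSMUSG00000031004.8, chromosome 7, positions 135689784 to 135716361, minus strand), the proliferation antigen Ki-67, fell from 273, 271 and 266 CPM to 102, 100 and 102 CPM, a fall by 1.41 (SE 0.03, adjusted p 6.3e-17). Cenpf and Cenpe, which act at the kinetochore, fell by 1.78 and 1.72, Foxm1, the transcription factor of G2 and M phase genes, by 1.52, Plk1, a mitotic kinase, by 1.49, and Aspm, a spindle pole protein, by 1.85 (from 15.6 to 4.31 CPM). Cdk1 fell by only 0.47, and Cks2 (−0.21, adjusted p 0.062) was the member not called, although it was called without Ctrl replicate 3 or IR replicate 2 (both −0.26, adjusted p 0.044 and 0.042) and with the length trend taken out (−0.61). In WT the list fell further, with a median of −1.53. The fall was smaller in cKO for 29 members and larger for 1, Mki67 (−0.15), in the test of the difference, and with the length trend taken out smaller for 31 and larger for 0, the difference of Mki67 then being 0.06.

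DNA replication genes fell less evenly. Of 40 listed, 29 were lower and 3 higher (median −0.41). The largest falls were those of Pole, the leading-strand polymerase (−1.21), Uhrf1, which carries DNA methylation through replication (−1.07), and Rrm2, a subunit of ribonucleotide reductase (−0.95). The helicase subunits Mcm2 to Mcm7 fell by between 0.51 (Mcm3) and 0.86 (Mcm2), Mcm2 from 34.2, 36.7 and 37.6 to 19, 20.8 and 19.8 CPM. Pcna (0.00, adjusted p 0.94) and Tyms (−0.01, adjusted p 0.94) were not called, and the higher members were Rpa3 (0.61), Gins3 (0.45) and Gins4 (0.30). Of these, Rpa3 and Gins4 lost their call when each library's trend on transcript length was taken out. Of 30 genes of DNA break repair and checkpoints, 21 were lower and 1, Chek2, was higher (median −0.33). Cdc25c, the phosphatase that releases mitosis, fell by 2.09, Fancd2 by 0.87 and Atm, the kinase that senses breaks, by 0.42. With the length trend taken out 16 of the 30 were lower, and Chek2 (adjusted p 0.062) was no longer called. The rise of Chek2 (0.28) was also not called without Ctrl replicate 3 (0.26, adjusted p 0.057) or without IR replicate 2 (0.21, adjusted p 0.1).

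The starts of these genes are shown because their members moved together. RefSeq promoters of GRCm38.p6 run from 250 bases before to 50 after each start, and 35 promoters of 33 of the 40 mitosis genes and 37 promoters of 32 of the 40 replication genes were found. Both strands were searched. The letters CCAAT, the box bound by NF-Y, were in 85.7% of the mitosis promoters against 37.4% of all 32851 promoters, and TTTGAA, the cell cycle homology region bound by the DREAM complex, in 77.1% against 17.9%. The letters TTTNNCGC, a loose pattern like an E2F site, were in 40.5% of the replication promoters against 5.17%. Such matches describe the sequence and are not evidence of binding. The members with the smallest adjusted p that held a match were Mki67, Top2a and Cenpe for CCAAT, Mki67, Top2a and Bub1b for TTTGAA, and Uhrf1, Mcm5 and Mcm7 for the E2F-like letters. Windows of 5 of them are given 5′ to 3′ on the gene's strand, with matches in capitals.
Mki67 (minus strand, chr7:135716480-135716556, CCAAT): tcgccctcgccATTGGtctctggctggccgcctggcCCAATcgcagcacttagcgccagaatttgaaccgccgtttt
Mki67 (minus strand, chr7:135716436-135716513, TTTGAA): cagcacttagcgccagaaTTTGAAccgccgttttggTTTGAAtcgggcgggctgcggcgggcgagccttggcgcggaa
Top2a (minus strand, chr11:99024207-99024283, CCAAT): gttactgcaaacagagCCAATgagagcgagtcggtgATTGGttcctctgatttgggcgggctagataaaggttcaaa
Cenpe (plus strand, chr3:135212515-135212562, CCAAT): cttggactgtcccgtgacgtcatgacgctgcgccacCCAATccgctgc
Uhrf1 (plus strand, chr17:56303245-56303324, TTTNNCGC): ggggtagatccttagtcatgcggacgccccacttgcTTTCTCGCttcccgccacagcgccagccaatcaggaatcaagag
Mcm5 (plus strand, chr8:75109324-75109403, TTTNNCGC): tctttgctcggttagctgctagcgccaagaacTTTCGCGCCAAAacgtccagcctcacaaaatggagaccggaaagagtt
Mki67, Top2a, Uhrf1 and Mcm5 fell by 1.41, 1.19, 1.07 and 0.77 on the log2 scale, and Cenpe by 1.72. The CCAAT windows of Mki67 and Top2a and the window of Mcm5 hold a match on each strand.

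The largest falls were those of granule genes of neutrophils, eosinophils and their precursors. Ngp, neutrophilic granule protein, stood at 236, 231 and 227 CPM in Ctrl and at 13.7, 11.9 and 11.9 CPM in IR, a fall by 4.21 (SE 0.05, adjusted p 4.9e-22). Ltf, the granule protein lactoferrin, fell from 252, 259 and 259 to 15.8, 14.3 and 14.4 CPM (−4.11). Both kept about the same level in all 3 IR libraries. Mpo, the myeloperoxidase of primary granules, had 2586 counts in the Ctrl libraries and 11 in the IR libraries, a ratio of 215 (95% interval 120 to 431, counting error only), and Prg2, the major basic protein of eosinophils, had 1188 and 19, a ratio of 57.1 (36.4 to 95.2). Elane, neutrophil elastase, went from 648 to 3 counts (ratio 197, 67.2 to 959), and Prg3, a second eosinophil granule protein, from 46 to 0 counts, at least 14-fold lower against a floor of 3 counts over the group. Fcnb, a ficolin of granulocytes (−4.70), Cd177, a neutrophil surface protein (−2.39), Olfm4 (−1.96) and Lrg1 (−1.96), also neutrophil granule proteins, and Abca13 (−2.96), Rflnb (−2.27) and Nhsl2 (−1.93) completed the falls named by rank.

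As lists, 12 of 14 neutrophil markers (median −1.09), 7 of 10 immature granulocyte and progenitor markers (−4.90), all 5 tested mast cell and basophil markers (−3.43) and 4 of 5 tested eosinophil markers (−5.80) were lower, and none of these was higher. The eosinophil median was −3.81 with Prg3 set to its bound. Eosinophil markers were low, summing to between 10.4 and 12.8 CPM in Ctrl and between 2.56 and 3.35 CPM in IR. Mast cell and basophil markers summed to between 8.11 and 9.77 CPM in Ctrl and between 1.82 and 1.89 CPM in IR. Of the 10 progenitor markers 8 stood under 1 CPM in IR. Elane and Prg3 passed the count filter through the Ctrl libraries alone, so that a difference was built into these members. Mpo and Prg2, with means of 0.051 and 0.0892 CPM in IR, also had too few IR counts to pass without the Ctrl libraries. The progenitor and eosinophil medians include these members. Not every neutrophil gene fell so far. S100a9 and S100a8, the calprotectin subunits, fell by 1.40 and 1.18, Lcn2, lipocalin 2, by 0.67, and Mmp9 by 0.25, while Mmp8 was not called (−0.06, adjusted p 0.11), except without IR replicate 1 (−0.08, adjusted p 0.049) and with the length trend taken out (−0.17). The summed level of the neutrophil markers fell from between 1873 and 1897 CPM to between 895 and 908 CPM. These are bulk samples, in which fewer cells of a type and less RNA per cell cannot be told apart. In WT the falls of S100a9 (−2.52), S100a8 (−2.38) and Lcn2 (−2.19) were larger, with interaction terms of 1.12, 1.20 and 1.52 (adjusted p at most 1.4e-07), whereas those of Ngp and Ltf did not differ by a called amount (0.05, SE 0.06, and 0.00, SE 0.06), although with the length trend taken out the fall of Ngp was larger in cKO (−0.27, adjusted p 0.003).

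Monocyte genes fell too. Of 11 inflammatory monocyte markers 8 were lower (median −0.89), among them Cd177 (−2.39), which is on the neutrophil list too. Of 9 non-classical monocyte markers 7 were lower and 1 higher (−0.52). Ccr2, the receptor that brings monocytes into tissue, fell from 198, 203 and 192 to 99.7, 92.7 and 90.6 CPM (−1.07), and Cx3cr1, the fractalkine receptor, fell by 1.15. Ly6c2 fell by only 0.20 (adjusted p 0.0038). Fn1, fibronectin, fell from a mean of 924 to 498 CPM (−0.89), whereas in WT it was not called (0.06, adjusted p 0.13), a difference of −0.95 (adjusted p 2.8e-11).

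Macrophage markers fell more often than they rose (median −0.16). Of 16, 9 were lower (56.2%) and 4 higher (25%), against 26.2% and 22.7% of all genes. Csf1r, the receptor of the macrophage growth factor CSF1, fell from 2355, 2344 and 2416 to 1464, 1521 and 1549 CPM (−0.65, SE 0.03, adjusted p 2.2e-12), and the mannose receptor Mrc1 fell by 0.47 and C1qa, a subunit of complement C1q, by 0.35. Adgre1, which encodes F4/80, fell by 0.15. Pf4, platelet factor 4, which macrophages also express, rose by 0.88 to a mean of 318 CPM, Ms4a7 by 0.53 and the lipid receptor Trem2 by 0.28. Of 17 genes for clearing dead cells 10 were lower and 4 higher. The receptors Axl (−0.72), Stab1 (−0.61) and Lrp1 (−0.60) fell, and the bridging proteins Mfge8 (0.51) and Gas6 (0.55) rose. Stab1 and Lrp1 were not lower in WT (0.05 and 0.10), with called differences of −0.66 and −0.70.

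Genes of mature dendritic cells rose. All 8 tested markers of mature migratory dendritic cells were higher (median 0.57), and their summed level went from between 2608 and 2627 to between 3646 and 3713 CPM. Ccr7, the receptor that guides them to lymph nodes, rose from 422, 415 and 416 to 636, 628 and 660 CPM (0.62, SE 0.03, adjusted p 3.6e-12), and the CCR4 ligands Ccl22 and Ccl17 rose by 0.62 and 1.18. Of 7 tested markers of type 1 conventional dendritic cells 2, the transcription factors Batf3 (0.63) and Irf8 (0.47), were higher and 1, Naaa (−0.18), was lower. Of 8 tested markers on the type 2 list 3 were higher and 4 lower (median −0.03). The higher members were Irf4 (0.38), Zbtb46, a factor of conventional dendritic cells of both types (0.54), and Cd1d1 (0.25, not called with the length trend taken out), and the lower ones were the lectins Mgl2 (−0.71) and Clec10a (−0.79), Sirpa (−0.37) and Itgax (−0.25). Clec9a and Xcr1, defining genes of type 1 cells, were at or near 0, with means of at most 0.437 CPM.

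Transcription factors of the myeloid lineage fell more often than they rose. Of 21, 11 were lower (52.4%) and 6 higher (28.6%), against 26.2% and 22.7% of all genes (median −0.18). Pparg, the nuclear receptor of lipid metabolism in macrophages, fell from 17.3, 16.6 and 16.2 to 8.78, 8.23 and 8.41 CPM (−0.98), Cebpe, which drives granule genes, by 0.53, Runx1 by 0.49, and the macrophage factor Maf by 0.46. Id2, which dendritic cells need, rose by 0.53 and Bhlhe40 by 0.34. Spi1, which encodes PU.1, fell by only 0.10.

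Markers of cell types outside the sort were few. Of the 8 markers of erythroid cells and 10 of natural killer cells, 0 and 1 passed the count filter, the one being Klrk1 (a mean of 7.75 CPM in Ctrl). The natural killer genes Ncr1, Gzma, Prf1 and Eomes were at 0 counts in all 6 libraries. Among B cell and plasma cell markers Ighm fell from a mean of 6.81 to 3.01 CPM (−1.18), and Ms4a1 stayed under 1 CPM. Of 4 tested plasmacytoid dendritic cell markers 1, Bst2, was higher and 1, Runx2 (−0.31, not called with length and GC content taken out), lower, and Siglech stayed under 1 CPM. Of 5 tested platelet markers 2, Pf4 and Ppbp, were higher and 1, Vwf, lower, while Gp9 was at or near 0. Of 5 tested endothelial markers 2 were lower, namely Vwf (−0.40, but −0.00 with length and GC content taken out) and Pecam1 (−1.20), while Cdh5 stayed under 1 CPM, and of 2 tested fibroblast markers 1, Col1a1, fell from 45 to 10 counts in all. Epcam, at under 1 CPM, was the tested epithelial or tumour marker called higher (1.10, adjusted p 0.0014).

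Ligands that stimulate T cells rose in part. Of 14 tested co-stimulatory and checkpoint ligands, inhibitory members included, 7 were higher (50%) and 4 lower (28.6%), with a median of 0.25. With the length trend taken out 6 were higher and 4 lower (median 0.15). Tnfsf4, the OX40 ligand, rose from 35.7, 34 and 32 to 81.2, 80.6 and 79.7 CPM (1.25). Cd70 (1.46), Cd80 (0.77), Cd40 (0.66) and Cd86 (0.63) rose, and so did the inhibitory ligand Cd274, which encodes PD-L1 (0.28). Vsir, which encodes the checkpoint protein VISTA, fell by 0.47. In the test of the difference Cd40 rose more in cKO than in WT (0.42), and the other members named here were not called, of which Cd274 was called with the length trend taken out (−0.21).

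**Figure D3:**
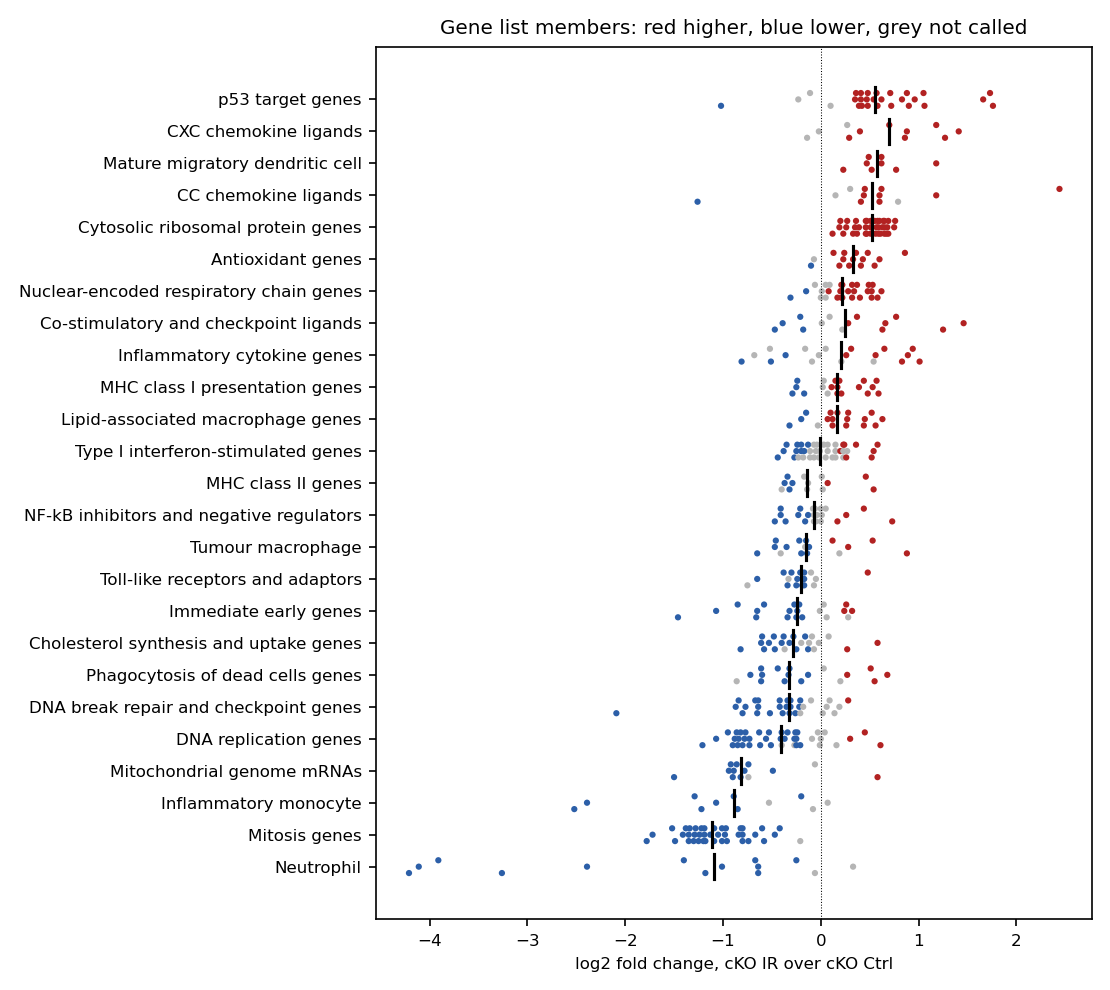
Each row is a gene list and each point 1 of its tested members, placed by its log2 fold change between cKO IR and cKO Ctrl, with a black line at the median of the list. Red members were called higher and blue members lower at an adjusted p under 0.05, and grey members were not called. The p53 targets and the ribosomal protein genes lie to the right of 0, the mitosis and neutrophil genes to its left, and the interferon-stimulated genes on both sides.

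Most chemokine ligands rose. Of 11 tested CXC and related ligands 8 were higher and 0 lower (median 0.70). Cxcl5 rose from 28.6, 29.7 and 29.5 to 77.3, 77.5 and 77.7 CPM (1.41, SE 0.08, adjusted p 1.6e-11), Cxcl3 from 208, 209 and 210 to 542, 483 and 491 CPM (1.27), Cxcl1 by 1.18 and Cxcl2 by 0.86, all of them ligands of CXCR2. Their receptor gene Cxcr2 fell by 1.01. The interferon-induced ligand Cxcl10 was not called (−0.14, adjusted p 0.41), and Cxcl16, which attracts CXCR6-bearing lymphocytes, rose by 0.40. Each of Cxcl1, Cxcl2, Cxcl3, Cxcl5 and Cxcl16 rose more in cKO than in WT, by between 0.19 and 0.43. With the length trend taken out these differences were not called for Cxcl1 (0.21), Cxcl5 (0.20) and Cxcl16 (0.11), nor with length and GC content taken out for Cxcl2 (0.12) and Cxcl3 (0.19).

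Of 12 tested CC ligands 8 were higher and 1, Ccl24 (−1.26), was lower (median 0.52). Ccl5, which attracts T cells and monocytes, rose from 427, 434 and 415 to 635, 648 and 656 CPM (0.60), as in WT (0.60), and Ccl9 (0.45), Ccl6 (0.44) and Ccl3 (0.60) rose. Ccl2, the ligand of CCR2, rose from 8.74, 9.24 and 9.08 to 12.8, 11 and 12.1 CPM (0.41, SE 0.09, adjusted p 7.0e-04), whereas it fell in WT (−0.61), with a called difference of 1.02. Ccl12 was also higher in cKO IR (2.44, adjusted p 0.0028), but it rested on 15 and 77 counts in all and in WT on 18 counts in Ctrl and 0 in IR. With the length trend taken out the rise of Ccl2 was 0.11 and no longer called (adjusted p 0.31), and that of Ccl5 was 0.27. The CC ligands are short transcripts, with a median of 1049 exon bases.

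The starts of the CXCR2 ligands are shown because they rose together. Letters like a site of NF-kB, spelled GGGA, any 2 letters and TTCC, were in 36.4% of 11 promoters of this list, against 1.47% of all promoters. They were in 7.69% of 13 promoters of the CC ligands and in 8.7% of 23 promoters of NF-kB inhibitors. All 3 windows below hold the match on both strands, within 100 bases of the start.
Cxcl3 (plus strand, chr5:90785993-90786074, NF-kB letters): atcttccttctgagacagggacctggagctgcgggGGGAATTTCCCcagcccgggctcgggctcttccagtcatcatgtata
Cxcl1 (plus strand, chr5:90891139-90891220, NF-kB letters): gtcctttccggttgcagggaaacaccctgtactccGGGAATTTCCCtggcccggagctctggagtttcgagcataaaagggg
Cxcl2 (plus strand, chr5:90903767-90903848, NF-kB letters): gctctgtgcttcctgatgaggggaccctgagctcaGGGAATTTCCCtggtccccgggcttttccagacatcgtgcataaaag
The capitals spell the same letters in all 3, GGGAATTTCCC.

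Of 15 tested chemokine and chemoattractant receptors 5 were lower (33.3%) and 4 higher (26.7%), not far from the 26.2% and 22.7% of all genes. Only 2 were higher once the length trend was taken out. Besides Ccr2, Cx3cr1 and Cxcr2, the complement receptors C5ar1 (−0.56) and C3ar1 (−0.42) fell. Cxcr4, the receptor that holds cells in marrow and draws them to CXCL12, rose by 0.55. The formyl peptide receptors Fpr1 (0.26) and Fpr2 (0.26) rose but were not called with the length trend taken out (0.00 and −0.01, adjusted p 0.96 and 0.92).

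Inflammatory cytokines rose in part. Of 19 tested, 8 were higher and 3 lower (median 0.21). Il6 rose from a mean of 4.65 to 9.34 CPM (1.01), Il12b, the p40 subunit of IL-12 and IL-23, from 60, 58.4 and 59.3 to 115, 116 and 110 CPM (0.94), and Il15, a growth factor of natural killer and memory T cells, by 0.89. Il1b (0.31) and Tnf (0.26) rose by less, and Tnf was no longer called with the length trend taken out (0.05, adjusted p 0.28), nor Il1b with length and GC content taken out (0.06, adjusted p 0.072). Tgfb1 fell by 0.51. Il10 was not called (−0.68, adjusted p 0.16) at a mean of 0.807 CPM in Ctrl and 0.503 CPM in IR. Il12b, Il15, Il1b and Tnf rose more in cKO than in WT, by between 0.18 and 0.46, but none of these 4 differences was called with the length trend taken out (−0.02 to 0.29).

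Suppressive effectors of myeloid cells went both ways, with 9 of 21 higher (42.9%) and 10 lower (47.6%), against 22.7% and 26.2% of all genes. Arg1, which depletes arginine, rose from 2.03, 1.97 and 2.29 to 4.35, 5.26 and 6.14 CPM (1.32, SE 0.15, adjusted p 3.3e-07), a low level beside the 334 CPM of Chil3, which fell by 0.85. Ptges (0.64) and Ptgs2 (0.42), which make prostaglandin E2, rose, while Vegfa (−0.36), the ectoenzymes Entpd1 (−0.40) and Nt5e (−0.99) and the oxidase subunit Cybb (−0.14) fell, the last by an amount that was no longer called with the length trend taken out (−0.05, adjusted p 0.074).

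Regulators of NF-kB had list medians near 0 in cKO. Of 22 inhibitors and negative regulators 4 were higher (18.2%) and 8 lower (36.4%), against 22.7% and 26.2% of all genes (median −0.07). With the length trend taken out 4 were higher and 12 lower (median −0.15). The difference from WT was called for 9 of the 22, 3 higher and 6 lower in cKO, against 32.5% of all genes. Metrnl and Smpdl3b are negative regulators that the study followed as targets of YTHDF2, and it chose them with libraries of this series in view. Metrnl, a secreted protein, fell from 99.9, 106 and 104 to 85.4, 86.9 and 91.2 CPM (−0.23, adjusted p 1.4e-04). Smpdl3b, a membrane phosphodiesterase, fell from 40.7, 44.5 and 41.1 to 32.1, 33.3 and 33.1 CPM (−0.36, adjusted p 1.7e-05). Socs3 fell by 0.13 (adjusted p 0.037), a call lost without any single one of the 6 libraries (−0.10 to −0.14, adjusted p 0.053 to 0.15), and Tnfaip8l2, known as TIPE2, was not called (0.01, adjusted p 0.95). The IR and Ctrl libraries did not overlap for Metrnl, Smpdl3b and Socs3 and overlapped for Tnfaip8l2. With the length trend taken out Tnfaip8l2 was lower (−0.29, adjusted p 1.3e-04), and with length and GC content together Socs3 was no longer called (−0.04, adjusted p 0.35). Bcl3, an atypical IkB protein, fell by 0.47, Nfkbia, which encodes IkBa, rose by 0.26 and Socs1 by 0.73. The rise of Nfkbia was 0.04 and not called with the length trend taken out. Of 11 subunits and kinases, Nfkb1 (−0.36), Rela (−0.28) and Tab2 (−0.16, not called with the length trend taken out) fell, and Rel (0.19), Map3k14 and Ikbkg rose. In WT 7 of the 11 were higher and 1 lower, and the difference was called for 9, of which 8 were lower in cKO. With the length trend taken out the called differences were 2 higher and 5 lower.

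Receptors that sense microbes and immediate early genes fell. Of 18 Toll-like receptors and adaptors 12 were lower and 1, Ly96 (0.48, not called with the length trend taken out), was higher, with Tlr9 at −0.65 and the TLR adaptor Ticam1 at −0.34. Neither fell in WT by a called amount (−0.09 and −0.05), and both differences were called (−0.57 and −0.29). Of 20 tested immediate early genes 13 were lower and 3 higher (median −0.24). Egr3 (−1.46), Nr4a1 (−1.07), Egr1 (−0.85) and Myc (−0.65) fell, while Atf3 (0.26) and Dusp1 (0.32) rose.

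Interferon-stimulated genes showed no common direction. Of 39 tested, 8 were higher and 10 lower, close to the shares of all genes, and the median was −0.01. Isg15, a ubiquitin-like modifier, rose from 9.45, 9.1 and 9.07 to 13.3, 13.9 and 14 CPM (0.58, adjusted p 6.2e-05), Usp18, which removes it, by 0.54 and Mx1, an antiviral GTPase, by 0.36. Oas2 (−0.44) and Ddx58 (−0.38), sensors of foreign RNA, fell. The rise of Isg15 was 0.20 with the length trend taken out and no longer called (adjusted p 0.095). In WT the list had a median of −0.32 and 22 members lower, and the difference between genotypes was called for 25 members, 21 of them higher in cKO, among them Isg15 (1.51), Cmpk2 (0.93), Ifit3 (0.97) and Ifit2 (0.76). Of these, Cmpk2, Ifit3 and Ifit2 were not called in cKO itself (0.12, 0.07 and −0.01, adjusted p 0.26, 0.54 and 0.95). The interferon genes Ifnb1, Ifna2, Ifna4 and Ifng were at or near 0 counts in all 6 libraries. Of 7 tested genes of interferon reception 6 were lower, among them the receptor chains Ifnar1 (−0.31) and Ifngr1 (−0.28), and the kinase Jak2 was higher (0.23). Of 14 tested nucleic acid sensors and adaptors 8 were lower, with Unc93b1, which carries endosomal receptors, at −0.35 and Mavs, the adaptor of RNA sensors, at −0.32, and 1, the DNA sensor Aim2, was higher (0.28). Of 15 tested interferon-inducible GTPases 3 were higher, Gbp8 (0.54), Gbp5 (0.33) and Ifi47 (0.27, but not called with the length trend taken out, adjusted p 0.1), and 1, Gbp7, was lower (−0.39).

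Class I presentation genes rose more often than they fell, although less so with the length trend taken out. Of 19 class I genes 12 were higher and 4 lower (median 0.17). The immunoproteasome subunits Psmb9 (0.53) and Psmb8 (0.39) and the activators Psme2 (0.57) and Psme1 (0.48) rose, whereas the transporter Tap2 (−0.24), the transactivator Nlrc5 (−0.25) and the trimming peptidase Erap1 (−0.29) fell, of which Nlrc5 was not called with the length trend taken out (−0.11, adjusted p 0.17). B2m rose by 0.17, but with the length trend taken out it fell (−0.19, adjusted p 0.0031), and the list then had 6 members higher and 4 lower. Of 13 class II genes 3 were higher (23.1%) and 4 lower (30.8%), close to the 22.7% and 26.2% of all genes. With the length trend taken out 2 were higher and 7 lower. Cd74, the invariant chain, fell from 4888, 4880 and 4905 to 3852, 3913 and 4003 CPM (−0.32), and H2-Ab1 was not called (0.02, adjusted p 0.59).

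Antioxidant genes rose. Of 15 listed, 13 were higher and 1, Gsr, was lower (median 0.33), and with the length trend taken out 12 were higher. Prdx1, a peroxidase of hydrogen peroxide, rose from 2387, 2368 and 2441 to 4814, 4109 and 4133 CPM (0.86, SE 0.05, adjusted p 1.7e-11), with IR replicate 1 above the other 2. The glutathione peroxidases Gpx4 (0.60) and Gpx1 (0.55) and the cystine transporter Slc7a11 (0.43) rose. The iron store Fth1 rose from 14312, 14252 and 13979 to 16639, 16115 and 16263 CPM (0.20), and Hmox1, which degrades haem, by 0.54. Of 17 genes of lipid-associated macrophages 13 were higher and 3 lower, with the fatty acid binding proteins Fabp5 (0.63) and Fabp4 (0.56) and the tetraspanin Cd63 (0.52) at the top and the cholesterol exporter Abca1 (−0.32) at the bottom.

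Genes of cholesterol synthesis and uptake fell, with 14 of 23 tested lower and 2 higher (median −0.28). Srebf2, the transcription factor of these genes, fell by 0.61, whereas Idi1, an isomerase of the pathway, rose by 0.58. Of 25 glycolysis and hypoxia genes 13 were lower and 4 higher, with Hk2, a hexokinase, at −0.56.

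Genes of the lysosome, of matrix degradation and of complement completed the effector lists. Of 20 tested lysosomal and cathepsin genes 10 were higher (50%) and 5 lower (25%), against 22.7% and 26.2% of all genes. The collagenolytic Ctsk (0.56), Ctsl (0.45) and the cholesterol carrier Npc2 (0.47) were at the top and Ctse (−1.22) at the bottom. With the length trend taken out 8 were higher and 9 lower. Of 17 tested matrix and protease genes 6 were higher (35.3%) and 7 lower (41.2%). Among them Mmp12, the elastase of macrophages, rose from a mean of 2091 to 2672 CPM (0.35), Serpinb2 rose by 0.84 and Mmp14 fell by 0.37. Of 13 tested complement genes 7 were lower and none higher, and of 7 tested Fc receptor genes 3 were higher, led by Fcgr3 (0.33), and 2 lower, or 1 and 3 with the length trend taken out.

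Of 15 genes of haem and iron handling 8 were higher (53.3%) and 4 lower (26.7%), against 22.7% and 26.2% of all genes. Besides Fth1 and Hmox1, the iron exporter Slc40a1 (0.37) and the biliverdin reductase Blvrb (0.48) rose, and the transferrin receptor Tfrc (−0.26) and Nfe2l2, which encodes NRF2 (−0.20), fell. Of 17 genes of the unfolded protein and integrated stress responses 5 were higher (29.4%) and 7 lower (41.2%). With the length trend taken out 3 were higher and 9 lower. The phosphatase subunit Ppp1r15a (0.45) was among the higher members, and the stress sensors Atf6 (−0.41), Ern1 (−0.35) and Eif2ak3 (−0.33) were among the lower.

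Ribosomal protein genes rose in every case. All 39 listed cytosolic ribosomal protein genes were higher (median 0.52, range 0.12 to 0.76). Rps24 rose from 567, 557 and 542 to 927, 960 and 928 CPM (0.76, SE 0.04, adjusted p 8.1e-12). In WT the list had a median of 0.00, with 4 members higher and 3 lower, and the difference between genotypes was called for all 39, or for 31 with the length trend taken out. Many of these genes have processed pseudogenes that share their sequence, and how reads were divided among them was not tested. Of 29 nuclear genes of the respiratory chain 21 were higher and 2 lower (median 0.22), among them Ndufb8 (0.58) and Cox5b (0.52), while Sdha fell (−0.31).

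Messenger RNAs encoded by the mitochondrial genome went the other way. Of 13, 10 were lower and 1, mt-Nd3, was higher (median −0.82). The single rise was lost with the length trend taken out (0.06, adjusted p 0.72). mt-Nd5, which encodes a subunit of complex I, fell from 2433, 2473 and 2357 to 1328, 1267 and 1247 CPM (−0.92, SE 0.04, adjusted p 4.3e-13) and mt-Co1, a subunit of cytochrome oxidase, from 4702, 4746 and 4567 to 2976, 2568 and 2597 CPM (−0.78). The share of gene counts from mitochondrial genes was 5.45% ± 0.0945 in the Ctrl libraries and 3.54% ± 0.187 in the IR libraries of this genotype (SD, n = 3). A two-sided exact permutation test gave p 0.1, the smallest that its 20 arrangements allow. The means were 4.69% and 6.69% in WT Ctrl and WT IR.

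The change in the libraries labelled cKO followed transcript length. Among nuclear protein-coding genes the median log2 change was 0.36 for the 310 genes with at most 1000 merged exon bases, 0.24 up to 2000, 0.07 up to 4000, −0.08 up to 8000 and −0.17 for the 2215 longer genes. In the shortest class 50.3% were higher and 9.68% lower, and in the longest 11.7% and 50.6%. In WT the medians went the other way and spanned less, from −0.11 to 0.06. The summed level of the shortest class over that of the longest was between 0.0642 and 0.0647 in cKO Ctrl, between 0.0981 and 0.0992 in cKO IR, between 0.0671 and 0.0677 in WT Ctrl and between 0.0579 and 0.0619 in WT IR, so that the 3 cKO IR libraries stood apart from the other 9. Other RNA classes moved at the same time. Gm42418, which overlaps ribosomal RNA, rose from between 274 and 335 CPM to between 654 and 998 CPM, the small nuclear RNA Rn7sk from between 40.3 and 43.8 to between 80.2 and 85.1 CPM, and 924 processed pseudogenes had a median of 0.31 (20.8% higher and 2.27% lower). Whether fragmentation, RNA quality or library preparation had a part in these values was not tested.

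**Figure D4:**
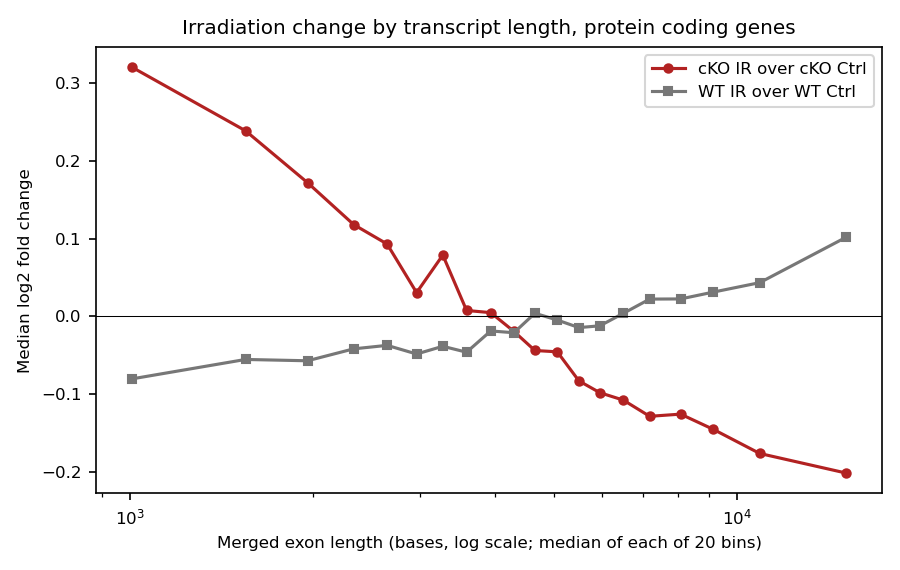
Nuclear protein-coding genes were put into 20 bins of equal size by merged exon length, and each point gives the median log2 fold change of a bin against its median length (bases, log scale), in red for cKO IR over cKO Ctrl and in grey for WT IR over WT Ctrl. The cKO line falls from above 0.3 to −0.2 and the WT line rises slightly.

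When the smooth trend of each library on exon length entered the fit as an offset, 3530 genes were lower and 3206 higher, and 137 rather than 234 were higher by at least 2-fold. The lists with large changes gave like counts, with 24 p53 targets higher (median 0.54), all 40 mitosis genes lower (−1.04) and 13 neutrophil markers lower (−1.32). Of the ribosomal protein genes 33 were higher (0.32), of the respiratory chain genes 11 (0.07), of the CXC ligands 8 (0.40) and of the CC ligands 8 (0.34), and 11 mitochondrial mRNAs were lower. With GC content added, 5 of 39 interferon-stimulated genes were higher and 9 lower, and 5 of 20 immediate early genes were higher and 13 lower. Of 15 genes of haem and iron 5 were then higher and 3 lower, and of 11 NF-kB subunits and kinases 6 and 3.

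**Figure D5:**
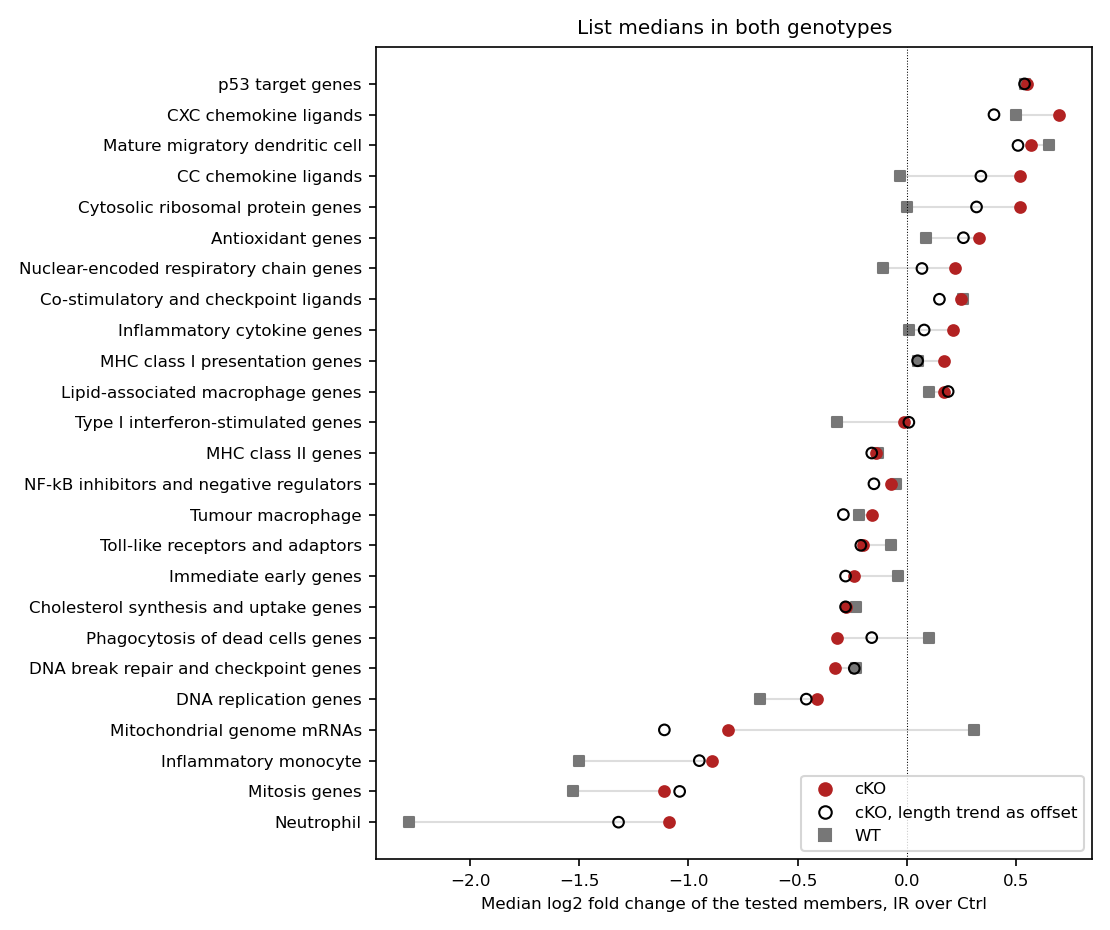
Each row is a gene list, with the median log2 fold change between IR and Ctrl of its tested members as a red point for cKO, an open circle for cKO with the length trend as offset and a grey square for WT. For p53 targets all 3 marks lie between 0.54 and 0.55, whereas for ribosomal protein genes they lie at 0.52, 0.32 and 0.00 and for mitochondrial mRNAs at −0.82, −1.11 and 0.31.

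By absolute level, the nuclear protein-coding genes that lost most CPM were Psap, the saposin precursor of lysosomes (13504 to 11374 CPM), Cd74, the heavy chain Myh9 of non-muscle myosin (3475 to 2595), Csf1r, beta-actin Actb (10335 to 9553), the actin crosslinker Flna (2221 to 1531), the matrix protein Thbs1 (2971 to 2402) and complement C3 (1772 to 1262). The nuclear protein-coding genes that gained most were Fth1, Prdx1, thymosin Tmsb4x (3366 to 4986), the elongation factor Eef1a1 (4504 to 6061), the ribosomal proteins Rpsa (2374 to 3502) and Rplp0 (1420 to 2102), Tpt1 (2066 to 2923) and Fabp5 (1211 to 1871). No IR library overlapped a Ctrl library for any of these 16, as for 58.5% of all genes. The 16 were picked by their difference, so this adds little. Myh9 and Thbs1 rose in WT (0.16 and 0.35), with called differences of −0.58 and −0.65. The fall of Myh9 was not called with length and GC content taken out (−0.05, adjusted p 0.13).

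Other genes named by the size of their rise were Inka2, an inhibitor of the kinase PAK4 (1.58), Prrg4 (1.30), the galactosyltransferase B3galt2 (1.28), the DNA repair enzyme Mgmt (1.26), Mucl1 (1.25), the glutaminase Gls2, a further p53 target (1.25), and the histone gene Hist1h2bc (1.22). Their means in IR lay between 5.06 CPM (B3galt2) and 21.9 CPM (Hist1h2bc).

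The m6A marks of these transcripts were taken from the unirradiated cKO cells, as 10918 peaks found in all 3 IP libraries of cKO Ctrl. A nuclear protein-coding gene without such a peak had a median change of −0.00 (8248 genes, 28% lower), with 1 peak 0.02 (1816 genes, 28.1% lower), with 2 or 3 peaks 0.00 (1577 genes, 31.3% lower) and with 4 or more −0.21 (822 genes, 58% lower). The last class also had longer transcripts, with a median of 5273 exon bases against 4572 without a peak, and its median was −0.15 with the length trend taken out. Peaks were taken from Ctrl libraries alone, and how far their number followed the Ctrl level of a gene was not tested. In WT the same 4 classes stood at 0.03, −0.05, −0.07 and −0.12. With peaks of at least 4-fold alone, the 197 genes with 4 or more had a median of −0.46 in cKO and −0.65 in WT. Mki67, with 10 peaks, Aspm, with 8, and Smpdl3b, with 4, belong to the last class, whereas Metrnl had 2 peaks and Socs3, Cxcl5 and Prdx1 had none. Of the 19 writers, erasers and readers of m6A 12 were lower and 2, Wtap (0.24) and Ythdf2, were higher. Alkbh5, a demethylase, fell by 0.35, while Mettl3, the methyltransferase, was not called (−0.13, adjusted p 0.078). Of 29 genes of deadenylation and decay 16 were lower and 5 higher, with Zfp36l2, which binds AU-rich elements, at −0.71 and Cnot1, the scaffold of CCR4-NOT, at −0.32. With the length trend taken out 9 of the 29 were lower.

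The irradiation effect was compared with that in the libraries labelled WT, which share no library with it. The difference was called for 4895 genes (32.5%), 2564 lower and 2331 higher in cKO than in WT, or 1676 lower and 1783 higher with the length trend taken out. Of the 178 genes named here with a called difference 51 were not called with that trend taken out, and 1, Ptprc, turned (from −0.18 to 0.17). Of 3467 genes called in both genotypes 2844 went the same way, which were 38.7% of the genes called in cKO and 55.7% of the 5103 (33.9%) called in WT. Another 271 were higher in cKO and lower in WT with a called difference, and 352 the reverse. The largest rises of the former, among protein-coding genes, were those of Ccl12, the histone genes Hist1h4b (1.13, WT −1.22) and Hist1h2be (0.77, WT −0.55), Sec61g, a subunit of the translocon (0.84, WT −0.20), Atp5e, of the ATP synthase (0.72, WT −0.15), and Znhit3 (0.67, WT −0.49). Hist1h4b, at under 1 CPM, overlapped between groups and lost its call with the length trend taken out (0.63), with the replicate number as a block (adjusted p 0.059) and without any single library other than IR replicate 1 (0.92 to 1.22, adjusted p 0.065 to 0.15). The largest falls of the latter were those of mt-Nd4 (−0.94, WT 0.31), mt-Nd5 (WT 0.30), mt-Cytb (−0.82, WT 0.37), mt-Co1 (WT 0.35), mt-Nd2 (−0.74, WT 0.22) and the zinc finger gene Zfp174 (−0.72, WT 0.63), which was not called without IR replicate 3 (−0.60, adjusted p 0.056).

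The m6A IP libraries give a further reading of a few of these genes. They belong to the same experiment as the Inputs, so they are not an independent check. An IP level also depends on methylation. Both groups of IR IP libraries showed Lyz2 at about the level of the other genotype's Inputs, with between 21286 and 21512 CPM in those labelled cKO IR and between 95.7 and 98.7 CPM in those labelled WT IR. Levels are on a scale of their own. Cdkn1a lay between 130 and 132 CPM in the cKO Ctrl IP libraries, between 279 and 291 in those labelled cKO IR and between 262 and 269 in those labelled WT IR. Mki67 lay between 2551 and 2575, between 889 and 916 and between 1449 and 1461 CPM in the same order. Whichever label is taken, Cdkn1a was higher and Mki67 lower in IR than in cKO Ctrl, with no overlap. Rps24 was lower in IR in these libraries, between 460 and 474 CPM in cKO Ctrl against between 380 and 398 (labelled cKO IR) and between 351 and 360 (labelled WT IR), the opposite of its Input.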

How the data were processed

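CD11b+ cells of MC38 tumours gave 12 Input and 12 m6A IP libraries (poly(A) RNA, stranded kit). The authors' steps, as their methods give them, were trimming (Trimmomatic 0.39), alignment to mm10 (HISAT) and counting per GENCODE vM19 gene (HTSeq), and the deposited values used here are raw counts and MACS2 peaks, whose summit fold (a ratio of IP over Input) was used only for peaks of at least 4-fold. HTSeq summary lines were left out. Of the cKO Input reads counted to a gene, to no feature or as ambiguous, 4.10% to 4.46% were no feature and 2.4% to 2.68% ambiguous.

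The 12 Inputs (65.2M to 83.7M counts) entered a single edgeR 4.0.16 quasi-likelihood fit (R 4.3.3) with 4 groups and TMM scaling, tested on 15065 genes with Benjamini-Hochberg adjustment and called at an adjusted p under 0.05. Fold changes are IR over Ctrl on the log2 scale, SE is the standard error of that value, and the interaction is the cKO change minus the WT change. Intervals of ratios of summed counts are 95% exact and cover counting error. The fit was tested on simulated data. Alternatives were RLE factors, DESeq2 1.42.0, other count filters, a replicate block, the 6 cKO Inputs alone, no mitochondrial genes, leaving out each library and, chosen after seeing the data, length and GC trends (loess) as offsets.

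Named genes were the 12 rises and 12 falls of largest size (protein coding, at least 5 CPM in a group, no overlap), the 8 largest CPM gains and losses (nuclear protein-coding genes), the most changed members of each list (up to 4) with its best known genes, the 6 genes of largest change moving oppositely in WT each way, and genes the study names. Members named beyond this were chosen after their values were seen, and some genes that the rule names are not reported here. The 38 gene lists and 19 marker lists, the members and the tests were chosen with earlier results of these data known. Gene positions and exon lengths are from GENCODE on GRCm38, which matched 54409 of 54446 identifiers, and promoters from RefSeq on GRCm38.p6. Peaks were consensus where they overlapped by at least 1 base in all 3 IP libraries.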

Additional observations from a re-analysis of the deposited data

Results flagged for a closer look

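The irradiation effect differed between the libraries labelled cKO and WT for 4895 genes (interaction term of the edgeR fit, adjusted p under 0.05), and the genes named above that were among them are given here with the cKO change minus the WT change on the log2 scale. A positive value is a larger rise or a smaller fall in cKO, and the sign rests on labels that the level of Ythdf2 went against. With the length trend taken out 51 of the 178 named differences were not called and 1, that of Ptprc, turned. The values below are those of the main fit and do not mark these genes. The value of Ccl12 rests on 0 counts in WT IR and depends on the prior count of the fit, and those of Elane and Mpo rest on 3 and 11 counts in cKO IR. The changes of Elane and Mpo in WT were −12.53 and −10.08, so that their values also depend on levels near 0 in WT IR.

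Among the p53 targets and cell death genes the difference was positive for Bcl2a1b (0.70), Casp4 (0.62), Bcl2a1d (0.55), Bax (0.39), Phlda3 (0.37) and Fas (0.35). For the p53 targets and cell death genes the difference was negative for Zmat3 (−0.36), Bcl2l11 (−0.30), Sesn2 (−0.26), Tnfrsf1a (−0.19) and Cdkn1a (−0.14). Of the genes of cell division, replication and repair the difference was positive for Cks2 (0.99), Tyms (0.81), Rpa3 (0.69), Cdk1 (0.63), Rrm2 (0.50), Gins4 (0.49), Plk1 (0.40), Mcm5 (0.36), Pcna (0.34), Top2a (0.33) and Bub1b (0.18). Among the genes of cell division, replication and repair the difference was negative for Atm (−0.37) and Mki67 (−0.15). For the granulocyte and monocyte genes the difference was positive for Elane (5.07), Mpo (2.38), Fcnb (1.61), Lcn2 (1.52), Prg2 (1.39), Cebpe (1.37), S100a8 (1.20), S100a9 (1.12), Chil3 (1.06), Mmp9 (0.75), Cxcr2 (0.70), Ly6c2 (0.45) and Mmp8 (0.12). Of the granulocyte and monocyte genes the difference was negative for Fn1 (−0.95). Among the macrophage, phagocytosis and lipid genes the difference was positive for Fabp4 (0.65), Ctsk (0.51), Serpinb2 (0.49), Fabp5 (0.41), Pf4 (0.40), Cd63 (0.37), Trem2 (0.34), Ms4a7 (0.30), Idi1 (0.24), Npc2 (0.24), Mmp12 (0.18) and Ctsl (0.10). For the macrophage, phagocytosis and lipid genes the difference was negative for Abca1 (−0.78), Lrp1 (−0.70), Stab1 (−0.66), Thbs1 (−0.65), Mrc1 (−0.58), Csf1r (−0.33), Mmp14 (−0.32), Axl (−0.27) and Srebf2 (−0.23).

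Of the dendritic cell genes, transcription factors and T cell ligands the difference was positive for Ccl17 (0.69), Cd40 (0.42), Mgl2 (0.32) and Spi1 (0.15). Among the dendritic cell genes, transcription factors and T cell ligands the difference was negative for Runx1 (−0.46), Itgax (−0.37), Irf4 (−0.28), Sirpa (−0.24), Bhlhe40 (−0.18), Zbtb46 (−0.18) and Naaa (−0.15). For the chemokines, their receptors, cytokines and suppressive effectors the difference was positive for Ccl12 (8.01), Cxcl10 (1.07), Ccl2 (1.02), Ccl9 (0.59), Ccl3 (0.51), Il15 (0.46), Il6 (0.46), Cxcl1 (0.43), Cxcl5 (0.43), Cxcr4 (0.39), Cxcl2 (0.36), Il1b (0.33), Cxcl3 (0.31), Ccl6 (0.30), Tnf (0.26), Fcgr3 (0.24), Ptges (0.21), Cxcl16 (0.19), Il12b (0.18) and Cx3cr1 (0.16). Of the chemokines, their receptors, cytokines and suppressive effectors the difference was negative for Entpd1 (−0.34), Vegfa (−0.33), Tgfb1 (−0.29), C5ar1 (−0.25) and C3ar1 (−0.18). Among the innate sensors, NF-kB regulators and immediate early genes the difference was positive for Tnfaip8l2 (0.27), Aim2 (0.25), Atf3 (0.22), Ikbkg (0.22) and Nfkbia (0.20). For the innate sensors, NF-kB regulators and immediate early genes the difference was negative for Tlr9 (−0.57), Egr1 (−0.52), Rel (−0.39), Map3k14 (−0.32), Rela (−0.31), Ticam1 (−0.29), Nfkb1 (−0.27), Bcl3 (−0.25), Mavs (−0.23) and Tab2 (−0.22). Of the interferon and antigen presentation genes the difference was positive for Isg15 (1.51), Ifit3 (0.97), Cmpk2 (0.93), Ifit2 (0.76), Ifi47 (0.49), Bst2 (0.48), Psmb9 (0.45), Psme1 (0.45), Psme2 (0.44), Psmb8 (0.40) and H2-Ab1 (0.32). Among the interferon and antigen presentation genes the difference was negative for Nlrc5 (−0.43), Jak2 (−0.33), Mx1 (−0.33), Erap1 (−0.31) and Cd74 (−0.15).

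For the stress and metabolic genes the difference was positive for Prdx1 (0.61), Gpx1 (0.53), Gpx4 (0.51), Blvrb (0.45) and Fth1 (0.15). Of the stress and metabolic genes the difference was negative for Hk2 (−0.47), Ern1 (−0.41), Eif2ak3 (−0.34), Atf6 (−0.21) and Nfe2l2 (−0.18). Among the ribosomal, respiratory and mitochondrial genes the difference was positive for Ndufb8 (0.76), Rps24 (0.71), Cox5b (0.59), Rplp0 (0.59) and Rpsa (0.45). For the ribosomal, respiratory and mitochondrial genes the difference was negative for mt-Nd4 (−1.25), mt-Nd5 (−1.22), mt-Cytb (−1.19), mt-Co1 (−1.14), mt-Nd2 (−0.96) and Sdha (−0.19). Of the genes of m6A and RNA decay the difference was positive for Wtap (0.27) and Ythdf2 (0.20). Among the genes of m6A and RNA decay the difference was negative for Cnot1 (−0.36), Zfp36l2 (−0.36) and Alkbh5 (−0.33). For the remaining genes the difference was positive for Col1a1 (2.92), Hist1h4b (2.35), Lrg1 (1.35), Hist1h2be (1.32), Znhit3 (1.16), Gm42418 (1.12), Sec61g (1.04), Atp5e (0.87), Mucl1 (0.77), Rn7sk (0.51), Hist1h2bc (0.49), Mgmt (0.49), Tmsb4x (0.48), Tpt1 (0.46), Rflnb (0.45), Lyz2 (0.43) and Eef1a1 (0.35). Of the remaining genes the difference was negative for Zfp174 (−1.35), Myh9 (−0.58), Runx2 (−0.56), Vwf (−0.47), Flna (−0.34), Itgam (−0.33), Nhsl2 (−0.26), Psap (−0.20) and Ptprc (−0.18).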

How the results depend on the processing

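Over the alternatives that left out no cKO library, the called genes numbered from 6732 to 8057 against 7353, and leaving out a single library gave 6601 to 6715, with 3559 to 3663 lower and 3025 to 3101 higher. The count of falls of at least 2-fold, 314, was 200 with a filter of 50 in place of 10 counts, and that of rises, 234, was then 124, and it was 137 and 136 with the length trend and the length and GC trends taken out. Without a single library these counts were 290 to 323 and 190 to 232. That filter removes low genes by construction, and the cause of the drop with the offsets was not tested. The count of genes whose effect differed between genotypes, 4895, was 4347 to 5563 without a single library (2303 to 2878 lower and 2030 to 2685 higher) and 3459 with the length trend taken out, when 1676 rather than 2564 were lower. The median change of genes with an m6A peak, −0.03, was −0.04 with peaks found in at least 2 of 3 IP libraries and −0.10 with peaks of at least 4-fold. Calls higher made up 46.4% of all calls, and 45.5% to 50% over the alternatives.

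The replicate numbers did not pair the libraries. Deviations from the group means of libraries with the same number correlated at −0.0124, 0.0187 and 0.0336, and only pair 3 correlated best with its own number. With the number as a block 7188 genes were called (3850 lower and 3338 higher) and 4681 in the test between genotypes, and of the 281 named genes Hist1h4b was the call that was lost.

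Among 4204 values of named genes under these alternatives 4128 kept their direction and side of the threshold, 54 lost their call, 17 gained one and 5 reversed. Those were B2m (−0.19 with the length trend and −0.26 with the length and GC trends taken out), Fpr2 (−0.01 and −0.10) and Fpr1 (−0.07 with both). Depth limits genes at a few counts, such as Ccl12 (15 counts in Ctrl and 77 in IR) and Col1a1 (45 and 10).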
